A study of Homo sapiens with 8 samples.

Results

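The genes described here encode nuclear subunits of complexes I to IV of the mitochondrial respiratory chain, cytochrome c, and 3 regulators of mitochondrial genes. They were taken from a list of 35 symbols, and a probe set counted as a member's own where the platform annotation gave that symbol and no other. By this rule 33 of the 35 genes were found among the 19775 genes on the array, and all 33 entered the tests, which covered 13161 genes. The complex IV subunit NDUFA4 was found under its newer symbol COXFA4. SDHB and UQCRFS1 are not listed under a single symbol in the annotation used and were not analysed here. The 33 genes comprised 15 subunits of complex I, 3 of complex II, 4 of complex III, cytochrome c (CYCS), 7 of complex IV, and the regulators TFAM, PPARGC1B and NRF1.

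RNA came from cultures of 2 human cell lines that the labels describe as acute lymphoblastic leukaemia, and was hybridized to Affymetrix arrays that carry sets of short oligonucleotide probes. Both lines received either GSK126, an inhibitor of the histone methyltransferase EZH2, at a dose of 0.5 uM or the vehicle DMSO alone, and were grown for 72 hours. The 4 groups were therefore SUP-B8 with DMSO, SUP-B8 with GSK126, NALM-6 with DMSO and NALM-6 with GSK126, with 2 arrays each that the labels call biological replicates. The series' title concerns a mutant form of EZH2, but the labels do not give the EZH2 genotype of either line, and each line stands for itself only. Because whole cultures were measured, fewer cells that express a gene and less RNA per cell cannot be told apart.

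The respiratory chain passes electrons from NADH, through complex I, and from succinate, through complex II, by way of ubiquinone to complex III, then through cytochrome c to complex IV, which reduces oxygen. Complexes I, III and IV pump protons, and the gradient drives ATP synthesis. Most subunits are encoded in the nucleus and a few in mitochondrial DNA, and transcription factors such as NRF1 and the ETS factor GABP, with coactivators of the PGC-1 family, act on the promoters of the nuclear genes. In leukaemia cells oxidative phosphorylation is a major source of ATP and of the aspartate needed for nucleotide synthesis.

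Replicate arrays correlated at r = 0.9977 to 0.9982 over all probe sets, array medians lay between 7.18 and 7.24 on the log2 scale, and the RNA quality controls, taken as the 3′ reading minus the 5′ reading, gave -0.07 to 0.02 (ACTB) and -0.14 to -0.11 (GAPDH). Of 9 B-lineage markers on the array, 9 lay above the array median on every array of each group, and of 6 myeloid markers none did. Of 7 T-cell markers 4 did, with list means within 0.10 of the array medians. The labels were less well matched at the level of B-cell stage. All 7 precursor B markers lay above the medians in the arrays labelled SUP-B8 and 1 of 7 in those labelled NALM-6, where terminal transferase (DNTT) had a mean of 6.86 under DMSO against 13.67 in SUP-B8. Of 6 mature B markers, 5 lay above the medians in NALM-6 and 2 in SUP-B8. The line NALM-6 is known as one of precursor B cells, so the names of both lines are used below as the labels of the arrays. Whether the labels of the lines were exchanged, or another line was grown, was not tested. An exchange would turn the sign of every difference between the lines and move each response to the other line.

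Each gene was represented by its probe set with the highest mean over the 8 arrays, and that probe set lay above the array median on all 8 arrays for all 33 members. The member values were close between replicates: the median absolute difference between replicates over the 33 genes was 0.06 in SUP-B8 DMSO, 0.04 in SUP-B8 GSK126, 0.04 in NALM-6 DMSO and 0.03 in NALM-6 GSK126. A difference below is a difference of log2 group means ± SE from limma, a linear model with moderated variances fitted over all 13161 genes, and a gene was called at a Benjamini-Hochberg adjusted p under 0.05 over those genes. For a single gene, the smallest two-sided p of an exact permutation test on 2 and 2 arrays is 0.333, so the calls rest on the model's shared estimate of the spread. Many of these genes have processed pseudogenes: 21 of the 33 have at least 1 pseudogene named after them in the RefSeq gene table, and CYCS has the most, with 45. Probes can share sequence with such copies, and how much signal they add was not tested.

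**Figure D1:**
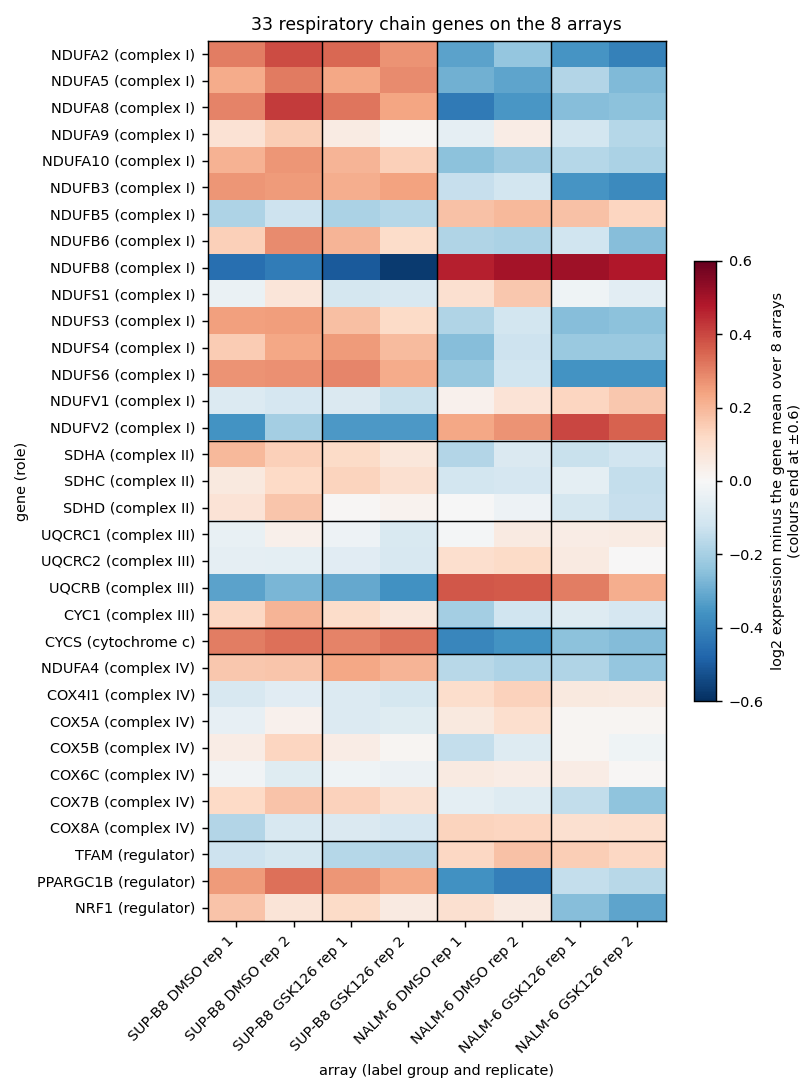
Each row is 1 of the 33 genes, ordered by role, and each column is 1 of the 8 arrays. Colour gives the log2 value of the representative probe set minus that gene's mean over the 8 arrays, with the colours ending at ±0.6. The division at the middle, between the arrays labelled SUP-B8 and NALM-6, is the strongest contrast for most genes, whereas columns of the same line look alike except for PPARGC1B, NRF1 and a few complex I genes in NALM-6.

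NRF1, a transcription factor, had the largest response to the inhibitor among the 33 genes, and the promoters that hold its binding letters are therefore shown. RefSeq windows from 250 bases before to 50 bases after the annotated start (build GRCh38.p14) were matched for 27 of the 33 genes, and the first listed window of each was searched on both strands. The letters GCGCATGCG, which read CGCATGCGC on the other strand, were found in 3 of the 27 windows (11.1%), those of NDUFA8, NDUFS6 and SDHD, and in 1.92% of 35116 windows of all genes. The ETS letters CCGGAAG were found in 6 (22.2%), those of NDUFS1, NDUFS3, SDHD, COX4I1, COX5B and COX8A, against 10.3% of all windows. The YY1 letters AAGATGGCG were found in 3 (11.1%), those of NDUFA9, NDUFS4 and UQCRC1, against 1.75% of all windows. In the sequences below, written 5′ to 3′ on the gene's own strand, capitals mark the NRF1 letters and, in SDHD, also the ETS letters on the opposite strand. NDUFA8 (chr9:122159774-122160029, minus strand) encodes a subunit of complex I, NDUFS6 (chr5:1801157-1801406, plus strand) another, and SDHD (chr11:112086623-112086872, plus strand) a membrane anchor of complex II.
NDUFA8: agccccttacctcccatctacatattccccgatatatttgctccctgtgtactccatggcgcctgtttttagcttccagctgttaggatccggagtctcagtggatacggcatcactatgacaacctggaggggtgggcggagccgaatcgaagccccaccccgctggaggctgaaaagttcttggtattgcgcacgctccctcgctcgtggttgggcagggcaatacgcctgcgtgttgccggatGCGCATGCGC
NDUFS6: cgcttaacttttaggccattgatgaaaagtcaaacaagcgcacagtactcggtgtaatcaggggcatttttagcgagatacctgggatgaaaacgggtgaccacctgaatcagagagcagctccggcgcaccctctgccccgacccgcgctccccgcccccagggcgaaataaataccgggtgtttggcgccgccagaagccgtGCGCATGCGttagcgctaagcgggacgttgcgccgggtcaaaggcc
SDHD: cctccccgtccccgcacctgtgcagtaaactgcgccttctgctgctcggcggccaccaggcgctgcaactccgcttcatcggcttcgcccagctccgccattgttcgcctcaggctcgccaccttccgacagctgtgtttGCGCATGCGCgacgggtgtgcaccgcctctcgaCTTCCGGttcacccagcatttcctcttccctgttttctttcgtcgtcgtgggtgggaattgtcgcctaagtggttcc
In NDUFA8 the letters span the annotated start, in NDUFS6 they begin at position -46, and in SDHD the ETS letters begin at position -77, where -1 is the base before the start. The run of capitals in NDUFA8 and SDHD is 1 base longer than in NDUFS6 because the letters match on both strands there, with the matches overlapping by all but 1 base. These are matches of letters, and binding was not measured.

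In the arrays labelled SUP-B8, no respiratory chain gene passed the test for a change with GSK126. None of the 33 genes was called by limma, against 2.25% of all genes tested, and none reached an unadjusted p under 0.05. The smallest adjusted p was 0.326. The log2 differences, GSK126 minus DMSO, ran from -0.12 for NDUFS1 to 0.05 for NDUFA4, with a median of -0.04 against -0.02 over all genes. The 95% intervals of all 33 genes lay within a 1.2-fold change in either direction, so larger responses in these cultures lie outside what the model allows for each gene taken singly.

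The electron donors and carriers of SUP-B8 were near level between treatments. CYCS, the soluble carrier between complexes III and IV, read 13.82 and 13.84 with DMSO and 13.81 and 13.83 with GSK126, and the groups overlapped. SDHA, the flavoprotein of complex II, read 11.52 and 11.47 with DMSO and 11.44 and 11.39 with GSK126, where both treated arrays were the lower but the difference of -0.08 ± 0.05 was not called (limma, adjusted p = 0.499, n = 2 per group). The difference was 0.03 ± 0.05 for SDHC and -0.11 ± 0.05 for SDHD, the membrane anchors of that complex, neither called. TFAM, which packages mitochondrial DNA and takes part in its transcription, differed by -0.06 ± 0.05. NRF1 differed by -0.04 ± 0.06 and PPARGC1B, a coactivator of the PGC-1 family, by -0.05 ± 0.05. None of these regulators was called.

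In the arrays labelled NALM-6, most respiratory chain genes also held near their DMSO level, and 5 of the 33 (15.2%) were called, where 39.3% of all genes tested were. PPARGC1B rose, against 20.8% of all genes called higher, and NDUFB3, NDUFS1, NDUFS6 and NRF1 fell, against 18.5% called lower. On the representative probe sets the calls thus took in 2 of the 3 regulators and 3 of the 15 complex I subunits. They took in no gene of complexes II, III or IV and not CYCS. A dimmer probe set of COX4I1, of complex IV, was called lower and is described below. The median difference was -0.03 over the 33 genes and 0.02 over all genes. These counts depend on the processing: renewed quantile normalization gave 8 members higher and 4 lower, with 5567 of 13161 genes called, and a trended robust prior gave 6 higher and 9 lower, with 5718 of 13161 called. The difference between the members' share of calls and that of all genes was not tested.

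NRF1 fell most. Its arrays read 9.49 and 9.44 with DMSO and 9.13 and 9.07 with GSK126. Both treated arrays lay below both controls, and below all 4 SUP-B8 arrays, which read 9.56 and 9.46 with DMSO and 9.50 and 9.44 with GSK126. The NALM-6 difference was -0.36 ± 0.06 (limma, adjusted p = 0.00124, n = 2 per group), so that the level fell by 22.1%. The other 3 tested probe sets of NRF1 moved the same way and were also called, by -0.36, -0.22 and -0.36.

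PPARGC1B read 8.69 and 8.64 with DMSO and 8.91 and 8.89 with GSK126 in NALM-6, a rise of 0.23 ± 0.05 (limma, adjusted p = 0.00705, n = 2 per group). Its treated arrays lay above the controls without overlap, yet below every SUP-B8 array, the lowest of which read 9.28. This rise rests on 1 probe set. The gene's other 2 tested probe sets, which lay near the array medians, differed by -0.08 and -0.09 and were not called, and the mean over the gene's probe sets gave 0.02 (limma, adjusted p = 0.760, n = 2 per group). On its representative probe set TFAM was level, at 11.77 and 11.82 with DMSO and 11.79 and 11.77 with GSK126. The difference of -0.02 ± 0.05 was not called. Each of its other probe sets also had a lower mean with GSK126. The widest gap was on the dimmest, which read 9.34 and 9.27 with DMSO and 9.16 and 9.12 with GSK126.

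**Figure D2:**
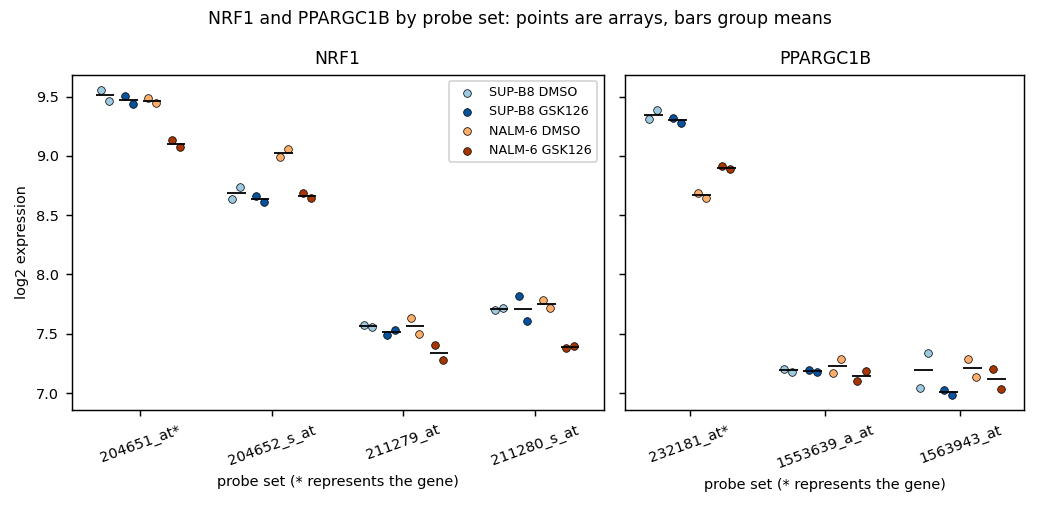
The left panel shows NRF1 and the right panel PPARGC1B, with log2 expression on the vertical axis and each gene's tested probe sets along the horizontal axis. Points are single arrays coloured by group, bars are group means, and an asterisk marks the probe set that represents the gene. In all 4 NRF1 probe sets the NALM-6 GSK126 mean lies below the NALM-6 DMSO mean, whereas a rise of PPARGC1B is seen in the brightest of its 3 probe sets and not in the other 2.

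Within complex I, NDUFB3, an accessory subunit of the membrane arm, read 11.83 and 11.85 with DMSO and 11.61 and 11.58 with GSK126. The groups did not overlap and the difference was -0.25 ± 0.05 (limma, adjusted p = 0.00337, n = 2 per group). NDUFS6, an accessory subunit near the iron-sulfur clusters of the matrix arm, read 12.21 and 12.32 with DMSO and 12.08 on both arrays with GSK126, a difference of -0.19 ± 0.05 (adjusted p = 0.0265). NDUFS1, the largest subunit and a carrier of iron-sulfur clusters, read 11.39 and 11.45 against 11.27 and 11.23, a difference of -0.17 ± 0.06 (adjusted p = 0.0373). The drops in NDUFS6 and NDUFS1 were small and close to the threshold. NDUFS6 lost its call without NALM-6 DMSO replicate 2, GSK126 replicate 1 or GSK126 replicate 2, which left 2 genes called lower in each case, and NDUFS1 lost its call in 6 of the 8 omissions of 1 array. A second probe set of NDUFS1 differed by 0.07, and the third, which lay below the array medians in NALM-6, by -0.17, neither of them called. The calls of NRF1, NDUFB3 and PPARGC1B were kept in all 8 omissions.

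The remaining 28 genes in NALM-6 were not called, and their differences can be bounded. NDUFA8 had the highest of these values at 0.14 ± 0.06 and NDUFA9 the lowest at -0.14, and all uncalled intervals lay between -0.26 and 0.27. CYCS read 13.12 and 13.15 with DMSO and 13.26 and 13.25 with GSK126, above the controls on both arrays, and its difference of 0.12 ± 0.05 missed the threshold (limma, adjusted p = 0.0705, n = 2 per group). SDHA differed by 0.01 ± 0.05, SDHC by 0.00 ± 0.05 and SDHD by -0.11 ± 0.05. For 25 of the 33 genes the whole 95% interval lay within a 1.2-fold change. No overlap between treated and control replicates was seen for 25 of the 33 genes, most of which missed the threshold. For a single gene such an order has a two-sided p of 0.333 in an exact permutation test. The share of all genes without overlap was not computed, so no response is read from this count.

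**Figure D3:**
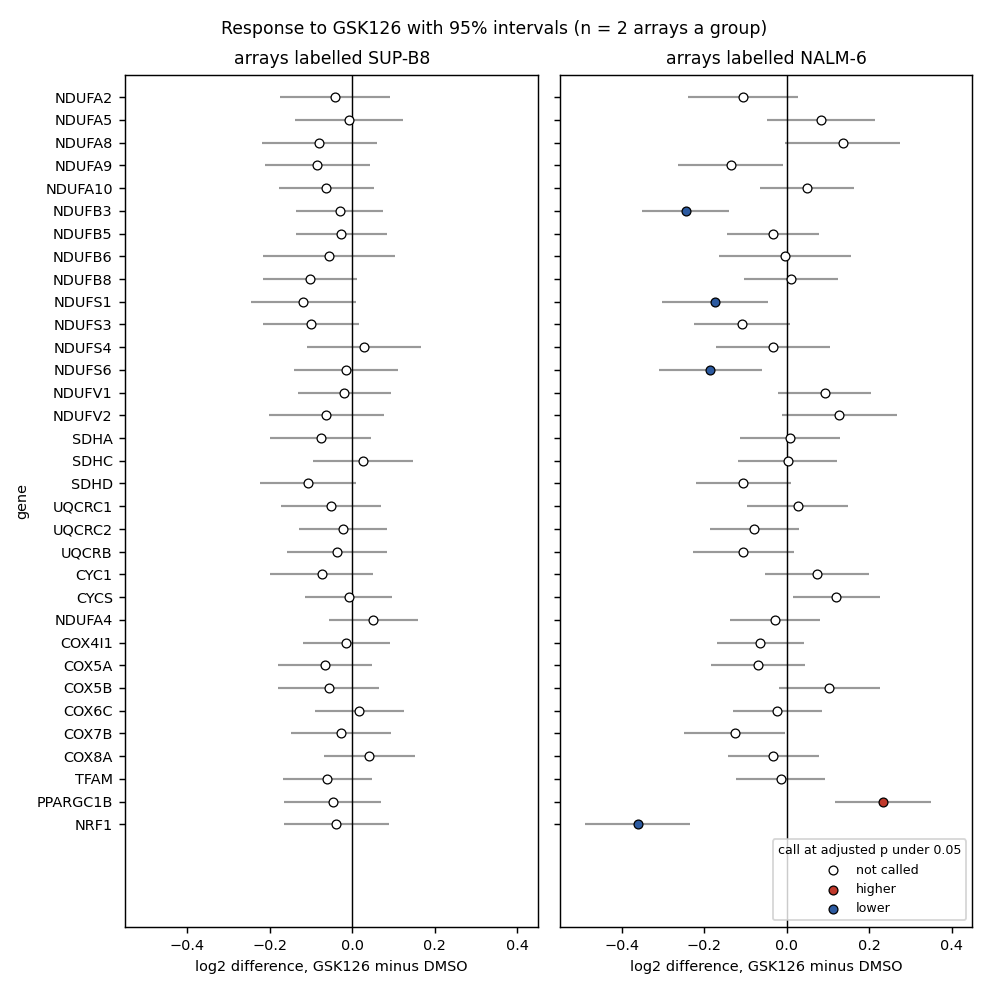
Each row is 1 gene and the horizontal axis is the log2 difference GSK126 minus DMSO, with its 95% interval from limma as a grey line, for the arrays labelled SUP-B8 on the left and NALM-6 on the right (n = 2 arrays a group). Filled points were called at an adjusted p under 0.05. All 33 SUP-B8 intervals stay between -0.25 and 0.17, whereas in NALM-6 NRF1 at -0.36, NDUFB3 at -0.25, NDUFS6 at -0.19 and NDUFS1 at -0.17 are called lower and PPARGC1B at 0.23 higher.

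Of the 3 genes with NRF1 letters in their promoters, NDUFS6 fell in NALM-6 at -0.19, SDHD differed by -0.11 and NDUFA8 by 0.14, the last 2 not called. The directions differed among them. Their median, which is the value of SDHD, was -0.11, against -0.02 over the 24 matched genes without the letters, whose values ran from -0.25 to 0.23. For the ETS letters, which SDHD also holds, the medians were -0.085 with and -0.004 without. For the YY1 letters they were -0.033 and -0.022. Whether genes with and without letters differ was not tested.

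Over the members' 66 tested probe sets, 13 fell and 3 rose in NALM-6, where 39.3% of all tested probe sets were called. Of the 66, 7 were not above the array median on all 8 arrays, among them 1 of the 13 and 2 of the 3, and no result rests on these. The others included dimmer probe sets of genes whose bright probe sets were level. NDUFB8, an accessory subunit of complex I, read 9.13 and 9.05 with DMSO and 8.38 and 8.48 with GSK126 on its dimmest tested probe set, a called difference of -0.66 ± 0.08, while its other 2 probe sets differed by 0.01 each. COX4I1, a regulatory subunit of complex IV, read 8.58 and 8.62 with DMSO and 7.92 and 8.08 with GSK126 on 1 probe set, a called difference of -0.60 ± 0.07, and differed by -0.06 and -0.08 on its bright ones. Which transcripts these probe sets read was not tested.

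The responses of the lines were then compared with each other. The difference of the responses, SUP-B8 minus NALM-6, was called for 3 of the 33 genes (9.09%), where 25.4% of all genes tested were. It was 0.32 ± 0.08 for NRF1 (limma, adjusted p = 0.0190, n = 2 per group), 0.22 for NDUFB3 (adjusted p = 0.0429) and -0.28 ± 0.07 for PPARGC1B (adjusted p = 0.0231). These are the genes whose NALM-6 response was kept in all omissions and whose SUP-B8 response was near 0. None of the 3 calls of a difference was kept in all 8 omissions of 1 array: NRF1 lost it in 4, PPARGC1B in 6 and NDUFB3 in 8. For NDUFS6 and NDUFS1 a difference between the lines was not shown.

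The other genes of the pathway moved unevenly in NALM-6, where 39.3% of all genes tested were called, 20.8% higher and 18.5% lower. Of 18 other complex I subunits tested, 1 rose and 2 fell (16.7% called). Of 10 other subunits of complexes III and IV limma called none, with 0 at an unadjusted p under 0.05. Of 18 ATP synthase subunits 4 fell and none rose (22.2% called). Respiratory chain assembly factors, which build the complexes without being part of them, had 26 of 49 genes called (53.1%), with 7 up and 19 down. Among them NDUFAF5, a complex I assembly factor, fell by 0.70 ± 0.05, COA7, of complex IV, by 0.50 ± 0.06 and NDUFAF6 by 0.43 ± 0.05, whereas ACAD9, also needed for complex I assembly, rose by 0.48 ± 0.07. In SUP-B8 limma called none of the 49, with 10 at an unadjusted p under 0.05. No subunit encoded in mitochondrial DNA is listed under its symbol in the annotation used.

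Among 12 other regulators of mitochondrial genes, 3 rose and 2 fell in NALM-6 (41.7% called, against 39.3% of all genes). GABPA, the DNA-binding subunit of the ETS factor GABP, fell by 0.57 ± 0.07 (limma, adjusted p = 0.000455, n = 2 per group), and MYC rose by 0.60 ± 0.05 (adjusted p = 5.27e-05). CREB1 fell by 0.25 ± 0.06 and HIF1A rose by 0.20 ± 0.05. Of the 14 genes for maintenance and transcription of mitochondrial DNA, 1 rose and 4 fell (35.7% called), with the mitochondrial RNA polymerase POLRMT down by 0.32 ± 0.06. The large subunit of the mitochondrial ribosome had 3 genes up and 11 down of 46 (30.4%), the small subunit 0 up and 4 down of 27 (14.8%). The tricarboxylic acid cycle had 0 up and 4 down of 15 (26.7%) and protein import 3 up and 4 down of 23 (30.4%). In SUP-B8 MRPL41 was the single gene called in any of these lists, at -0.34 ± 0.06.

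**Figure D4:**
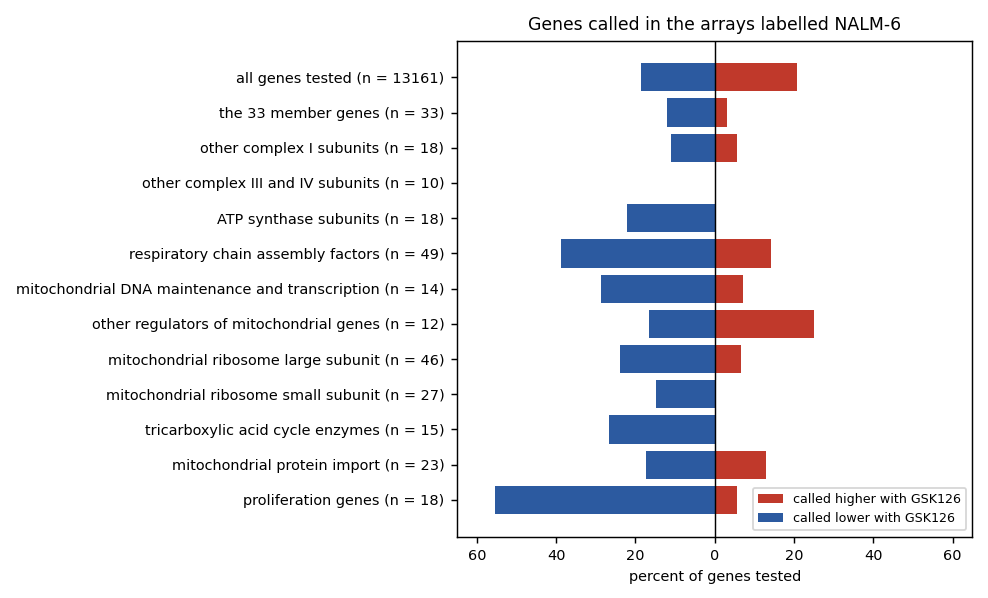
Bars give the percent of tested genes in each list that were called higher (right) or lower (left) with GSK126 in the arrays labelled NALM-6, with the number tested in parentheses and all 13161 genes at the top. The 33 respiratory chain genes reach 3.03% higher and 12.1% lower, against 20.8% and 18.5% of all genes, and assembly factors and proliferation genes have longer bars on the lower side.

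Other lists moved in NALM-6 beside these genes. Of 18 proliferation genes 10 fell and 1 rose (61.1% called, against 39.3% of all genes), with a median of -0.17. MKI67 fell by 0.43 ± 0.07. The mean of the 6 mature B markers above the array median went from 3.56 and 3.61 with DMSO to between 3.23 and 3.24 with GSK126, with 5 of 6 markers above the medians in both groups. The 7 precursor B markers had a mean below the medians in both. The part of these shifts in the respiratory chain values was not tested.

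Between the lines, many respiratory chain genes differed, in both directions. Under DMSO, 27 of the 33 genes were called (81.8%), where 68.3% of all genes tested were: 18 were higher in SUP-B8, against 37.8% of all genes, and 9 lower, against 30.6%. The median difference, SUP-B8 minus NALM-6, was 0.19 over the 33 genes and 0.04 over all genes. On the representative probe sets the differences were modest in size. They ran from -0.92 to 0.75, none reached 2-fold, and 8 reached 0.5 on the log2 scale. Some other probe sets differed by more. The dimmest tested probe set of NDUFB8 had means of 7.84 in SUP-B8 and 9.09 in NALM-6. A second probe set of CYCS, near the array medians in NALM-6, had means of 9.43 in SUP-B8 and 7.23 in NALM-6.

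Complex I held both ends of the range. NDUFB8 read 11.90 and 11.93 in SUP-B8 and 12.82 and 12.85 in NALM-6, the largest difference in favour of NALM-6, at -0.92 ± 0.05 (limma, adjusted p = 4.77e-07, n = 2 per group). NDUFA8 read 11.42 and 11.54 in SUP-B8 and 10.70 and 10.77 in NALM-6, the largest in favour of SUP-B8, at 0.75 ± 0.06 (adjusted p = 6.38e-06). All 3 tested probe sets of NDUFB8 gave a lower value in SUP-B8, whereas NDUFA8 has a single one. Of the 15 subunits 9 were higher in SUP-B8 and 4 lower. NDUFA2 was higher by 0.62 ± 0.06, NDUFA5 by 0.57 ± 0.06, NDUFA10 by 0.47 ± 0.05, NDUFS6 by 0.45 ± 0.05 and NDUFB6 by 0.40 ± 0.07. NDUFV2, an iron-sulfur subunit of the NADH-oxidizing module, was lower by 0.53 ± 0.06 and its partner NDUFV1, which binds NADH, by 0.15 ± 0.05, while NDUFB5 was lower by 0.34 ± 0.05. The second probe set of NDUFA2 was called the other way, at -0.32. Another probe set of NDUFA10, which lay below the array medians in SUP-B8, was also called the other way and is given no size. NDUFS1 was not called on its representative, at -0.11 ± 0.06, while a second probe set gave 0.55 and was called higher. The direction of NDUFA2, NDUFA10 and NDUFS1 thus depends on the probe set.

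All 3 measured genes of complex II were higher in SUP-B8. SDHA read 11.52 and 11.47 in SUP-B8 against 11.15 and 11.24 in NALM-6, without overlap, a difference of 0.30 ± 0.05 (limma, adjusted p = 0.000937, n = 2 per group). SDHA has a single probe set, with an x_at ending, and 4 named pseudogenes, so its difference could not be checked on another probe set. SDHC differed by 0.19 ± 0.05 and SDHD by 0.14 ± 0.05, and SDHD lost its call in 7 of the 8 omissions. For SDHC the probe sets above the medians on all 8 arrays divided: 4 gave differences between 0.17 and 0.32, while another gave -0.45 and was called lower. Its direction is therefore not settled by these arrays.

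The genes of complex III divided in direction, and cytochrome c was higher in SUP-B8. UQCRB, a small subunit of complex III, read 12.60 and 12.65 in SUP-B8 and 13.30 and 13.29 in NALM-6, a difference of -0.67 ± 0.05 (limma, adjusted p = 5.48e-06, n = 2 per group), and its other 2 probe sets gave -0.79 and -0.68. CYC1, which holds cytochrome c1, was higher in SUP-B8 by 0.33 ± 0.05, UQCRC2, a core protein, lower by 0.16 ± 0.05, and UQCRC1 was not called at -0.03 ± 0.05. CYCS read 13.82 and 13.84 in SUP-B8 and 13.12 and 13.15 in NALM-6, higher by 0.69 ± 0.05 (adjusted p = 1.70e-06). A second probe set above the medians on all 8 arrays, though near them in NALM-6, gave 2.20. The third tested one lay below the medians on all NALM-6 arrays and is given no size.

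Differences in complex IV were smaller than those at either end of complex I. NDUFA4 was higher in SUP-B8 by 0.34 ± 0.05, COX7B by 0.21 ± 0.05 and COX5B by 0.20 ± 0.05, while COX8A was lower by 0.27 ± 0.05 and COX4I1 by 0.20 ± 0.05. COX5A and COX6C were not called, at -0.09 ± 0.05 and -0.10 ± 0.05. No representative probe set of this complex differed by 0.5. A second probe set of COX5A read 9.53 on both arrays in SUP-B8 and 8.72 and 8.81 in NALM-6, called higher by 0.77 ± 0.06, so the result for COX5A depends on the probe set.

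The regulators also divided. PPARGC1B read 9.31 and 9.39 in SUP-B8 and 8.69 and 8.64 in NALM-6, higher by 0.68 ± 0.05 (limma, adjusted p = 3.68e-06, n = 2 per group), again on its brightest probe set, while the other 2 gave -0.04 and -0.02. TFAM read 11.52 and 11.54 in SUP-B8 and 11.77 and 11.82 in NALM-6, lower by 0.26 ± 0.05 (adjusted p = 0.000916), and all 4 of its probe sets were called lower. NRF1 was level between the lines under DMSO, at 0.05 ± 0.06 (adjusted p = 0.491), with replicates that overlapped. One of its 3 other probe sets was called lower in SUP-B8, at -0.34.

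The treated arrays gave the comparison of the lines a second time, since they share no array with the DMSO comparison. Both comparisons come from the same fit, so the calls share each gene's estimate of the spread and are not independent. Under GSK126 27 of the 33 genes were called, where 67.7% of all genes tested were, 19 higher in SUP-B8 and 8 lower, with a median of 0.18 against -0.01 over all genes. All 33 differences had the same sign as under DMSO, and 25 genes were called in the same direction in both. NDUFB8 differed by -1.03 ± 0.05, which is 2.04-fold and the single difference past 2-fold among the representative probe sets. NDUFV2 differed by -0.72 ± 0.06, UQCRB by -0.60 ± 0.05, CYCS by 0.56 ± 0.05, NDUFA2 by 0.69 ± 0.06 and NDUFA8 by 0.53 ± 0.06. Second probe sets called against the representative were those of NDUFA2 at -0.25, SDHC at -0.48, NDUFA5 at -0.19 and COX4I1 at 0.33.

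For the genes called in NALM-6 the differences under the 2 treatments stand side by side as follows. On its representative probe set NRF1, level under DMSO, was higher in SUP-B8 by 0.37 ± 0.06 under GSK126 (limma, adjusted p = 0.000363, n = 2 per group). Its next brightest probe set had GSK126 means of 8.635 in SUP-B8 and 8.665 in NALM-6. The other tested ones had 7.51 against 7.34 and 7.71 against 7.39. With the mean of the gene's probe sets the call was lost. NDUFB3 went from 0.38 ± 0.05 to 0.60 ± 0.05, NDUFS6 from 0.45 ± 0.05 to 0.62 ± 0.05 and PPARGC1B from 0.68 ± 0.05 to 0.40 ± 0.05. TFAM stayed lower at -0.31 ± 0.05, SDHA higher at 0.21 ± 0.05, SDHC at 0.22 ± 0.05 and SDHD at 0.14 ± 0.05. The 2 genes called under GSK126 and not under DMSO were NRF1 and NDUFA9, and those called under DMSO alone were UQCRC2 and COX5B. Of the 27 calls, 23 under DMSO and 22 under GSK126 were kept in all 8 omissions of 1 array.

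**Figure D5:**
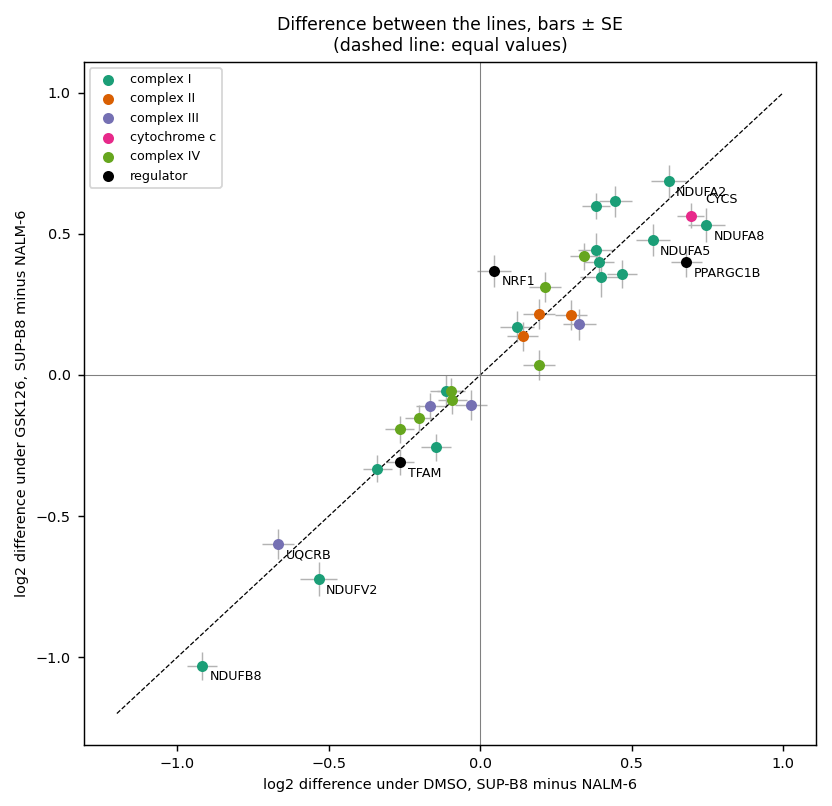
Each point is 1 of the 33 genes, coloured by role, with the log2 difference SUP-B8 minus NALM-6 under DMSO on the horizontal axis and under GSK126 on the vertical axis, and bars of ± SE. The dashed line marks equal values. Values are those of the representative probe sets. Points follow the line from NDUFB8 at -0.92 and -1.03 to NDUFA8 at 0.75 and 0.53, and NRF1 stands above it at 0.05 and 0.37.

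The lines differ in much besides these genes. The summed level of the precursor B markers, as the list mean above the array median, was 5.34 to 5.45 in SUP-B8 with DMSO and -0.69 to -0.53 in NALM-6 with DMSO, where DNTT, VPREB1, IGLL1, RAG1 and CD24 all lay below the medians. That of the mature B markers was -0.27 to -0.23 in SUP-B8 and 3.56 to 3.61 in NALM-6. Of 18 proliferation genes 12 were lower in SUP-B8 and 4 higher under DMSO (88.9% called, against 68.3% of all genes). The part of cell stage or growth in the respiratory chain differences was not tested.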

How the data were processed

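Gene expression was measured on 8 arrays, 2 for each of 4 groups given by the labels. The deposited table holds log2 values for 54675 probe sets. The submitters' processing notes name MAS5 and RMA, with neither role nor version, and name no genome build. That the deposited values are log2 was inferred from their range and from like medians on all arrays, and they were not transformed. A change shared by most transcripts would be removed by such normalization. Arrays have no read depth, and their number limits the precision.

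Probe sets with 1 gene symbol in the platform annotation (41097, against 1801 with several and 11777 not listed) were used. A gene was represented by its brightest probe set and tested where at least 2 of 8 arrays lay above the array median. limma 3.58.1 in R 4.3.3 fitted 1 mean per group with 4 residual degrees of freedom, with Benjamini-Hochberg adjustment of the p-values over 13161 genes, or over 30199 probe sets for single probe sets. Python 3.11.15 with pandas 2.3.3 prepared tables, and the fit was checked on simulated data. The members, the 12 gene lists and the tests were chosen with earlier results of these data known. Named members are called genes without overlap between replicates, up to 10 in each direction, with CYCS, the regulators and complex II always given. From each list up to 3 called genes per direction could be named. Single probe sets described beside the representative (NDUFB8, COX4I1, COX5A, NDUFS1, NDUFA5, NDUFA10, TFAM) were chosen after their values were seen. Arrays were not treated as paired by replicate number. Deviations of arrays with the same number correlated at -0.20 to 0.13, which shows no pairing but cannot exclude one. As the values are on the log2 scale, no pseudocount was used. Alternatives covered the filter, the choice of probe set, the scaling, the prior, a fold threshold, the replicate block and leaving out each array.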

Additional observations from a re-analysis of the deposited data

Results flagged for a closer look

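For 3 of the 33 genes (9.09%) limma called a difference of the GSK126 responses, SUP-B8 minus NALM-6, where 25.4% of all genes tested were called. None of the 3 calls was kept in all 8 omissions of 1 array, and that of PPARGC1B rests on 1 probe set. The values were 0.32 for NRF1, 0.215 for NDUFB3 and -0.28 for PPARGC1B. For NRF1 and NDUFB3 the NALM-6 arrays fell and for PPARGC1B they rose, while SUP-B8 arrays were near level.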

How the results depend on the processing

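With 2 arrays a group, small responses lie near the threshold. In SUP-B8 no member was called under any alternative. In NALM-6, where 1 member rose and 4 fell, renewed quantile normalization gave 8 higher and a trended robust prior 6 higher and 9 lower. The count lower was 2 with no filter or only the 4 arrays compared, 8 with probe sets averaged per gene, 7 with representatives without an s_at or x_at ending, and 2 to 4 over the omissions. For the difference of the responses (2 higher, 1 lower), counts higher were 1 with no filter, 1 with the fit over all probe sets, 1 with the replicate block, 4 with the probe set mean and 0 to 1 over omissions. Counts lower were 0 with no filter, the probe set mean or arrays centred on their medians, 5 with quantile normalization, 5 with the trended prior and 0 to 2 over omissions. The replicate block changed no other count of members by over 1.5 times. A fold threshold of 1.2 left 0 members called in NALM-6 and in the difference of responses, where 1472 and 929 of all 13161 genes were called. Between lines it left 9 members higher and 3 lower under DMSO and 10 and 3 under GSK126. Over all genes, 6006 and 5681 were called there. The median difference between lines under DMSO was 0.13 with the probe set mean, 0.13 without s_at or x_at endings and 0.15 to 0.22 over omissions.

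Among the called members named, directions turned with the choice of probe set and with no other alternative. Without s_at or x_at endings NDUFA2 was -0.32 under DMSO and -0.25 under GSK126, SDHC -0.45 and -0.48, COX5B -0.061 under DMSO, COX4I1 0.33 under GSK126, and NDUFS1 0.067 for the NALM-6 response. With the probe set mean SDHC was -0.00576 under DMSO and -0.069 under GSK126, NDUFB6 -0.053 and UQCRC2 0.023 under DMSO, and COX4I1 0.055 under GSK126. The cause was not tested.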

Other observations

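Several other mitochondrial genes differed between the lines by more than the respiratory chain genes' range of -0.92 to 0.75 under DMSO. Both are read from representative probe sets. Under DMSO, 17 of 23 tested genes of mitochondrial protein import were higher in SUP-B8 and 3 lower, with TIMM17A, part of the inner membrane translocase, higher by 1.39 ± 0.07, the chaperonin HSPE1 by 1.29 ± 0.09 and the outer membrane channel TOMM40 by 1.22 ± 0.05. Of 14 genes for mitochondrial DNA maintenance and transcription 8 were higher and 4 lower. TWNK, the mitochondrial helicase, was higher by 2.15 ± 0.07, while the methyltransferase TFB1M was lower by 1.44 ± 0.05 and its relative TFB2M, a factor of transcription initiation, higher by 1.15 ± 0.06.

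Assembly factors were divided, with 22 of 49 higher in SUP-B8 and 21 lower. SCO2, a copper chaperone of complex IV, was higher by 1.23 ± 0.06 and SDHAF4, a complex II assembly factor, differed by -2.36 ± 0.07. The mitochondrial ribosome had 21 of 46 large subunit genes higher and 9 lower, and 13 of 27 small subunit genes higher and 12 lower. Of 15 enzymes of the tricarboxylic acid cycle and pyruvate dehydrogenase 5 were higher and 7 lower, with PDHX, a binding protein of pyruvate dehydrogenase, at -1.75 ± 0.06. Calls are from limma at an adjusted p under 0.05 with n = 2 per group, where 68.3% of all genes were called.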
